A study of Mus musculus with 6 samples.

Results

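The 10 genes described here are the receptors Notch1, Notch2 and Notch3, the ligands Jag1, Jag2 and Dll1, the targets Hes1, Hey1 and Heyl, and Rbpj, the DNA-binding partner of the receptors. They were chosen by gene symbol and are 10 of the 30315 genes listed in the expression table. RNA-Seq was performed on primary renal tubular epithelial cells (TECs) of C57BL/6 mice, taken from kidney tubules and cultured. The 3 H/R_siSox9 libraries came from cells in which an siRNA (siSox9) had been used to lower Sox9, and the 3 H/R_siNC libraries came from cells transfected with the control siRNA siNC. All 6 were exposed to hypoxia/reoxygenation (H/R), in which 6 h at 1% O2 without glucose, begun 12 h after transfection, were followed by 18 h of reoxygenation in complete medium. No group without H/R is compared here, so each difference is one between siRNAs in injured cells. The labels do not say whether the libraries of a group came from separate cultures or mice, so the p-values measure the spread between these libraries, which may be technical.

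Notch receptors are cell-surface proteins that are cut when a Jagged or Delta-like ligand on a neighbouring cell pulls on them. ADAM proteases make the outer cut and the γ-secretase complex the inner cut, and the freed intracellular domain enters the nucleus, joins RBPJ and turns on genes such as Hes1, Hey1 and Heyl, which encode transcriptional repressors. In the kidney, the pathway is known for the choice of nephron segment during development and for being active again in injured tubules.

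Sox9, the transcription factor that siSox9 targets, was measured first. It had 8.93, 8.61 and 9.07 FPKM with siSox9 and 25.7, 26.5 and 25.6 FPKM with siNC, so that 34.2% of the control level was left (log2 fold change -1.45, standard error 0.03, limma adjusted p = 7.03e-06). FPKM are reads scaled to a gene's exon length and to the reads of the library, and levels can therefore be set side by side between genes. Totals implied by the values were 23893197 to 25725743 reads per library, at which 3 reads on 1 kb of exons are 0.117 to 0.126 FPKM. The most abundant gene was Gm23935 in siNC replicates 2 and 3 and mt-Co1 in the other 4 libraries, and the 10 most abundant genes took 10.3% to 15.7% of the summed FPKM. Of the defining markers, Krt8 and Krt18 of simple epithelium were at 2029 to 2190 and 1155 to 1292 FPKM, whereas the proximal tubule transporter Slc34a1 was at or near 0 in every library. The smooth muscle actin gene Acta2 reached 651.8 to 741.5 FPKM, so the labelled cell type was carried by general epithelial markers and not by those of a mature segment. Of all 12009 genes tested with limma, 17.6% passed as lower and 12.8% as higher with siSox9 (adjusted p under 0.05). All 8 proliferation genes measured passed as lower (median log2 fold change -0.64), as did Synpo, 1 of 1 podocyte marker tested. The 4 podocyte markers summed to 5.21 to 6.26 FPKM with siSox9 and 7.28 to 8.09 FPKM with siNC, with Nphs1 at 0 throughout. The epithelial markers summed to 3803 to 3959 against 3641 to 3840 FPKM, with 1 of 7 higher. Macrophage markers summed to 103.2 to 113.5 against 92.2 to 98.7 FPKM, most of it Lyz2 (80.5 to 87.8 against 68.0 to 75.5 FPKM). Lyz2 passed as higher, 1 of 4 tested. Among the other macrophage markers, Cd68 and Adgre1 had higher means with siSox9 and Csf1r and Ptprc lower means, each with overlap. No tested marker of proximal tubule (1), fibroblasts (1), mural and smooth muscle cells (3) or endothelium (1) passed the test, and no marker of the loop, distal tubule or collecting duct reached the minimum level. Beside the shares of all genes, a single call in lists this short shows nothing particular to a cell type. In bulk samples fewer cells of a type and less RNA per cell cannot be told apart, and the part of these differences in the results below was not tested.

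Knockdown of Sox9 was accompanied by lower Jag1, Rbpj, Notch2 and Notch3, while Notch1, Dll1 and Hes1 did not pass the test. The largest of the 4 falls in level left 76.9% of control for Notch3, and Jag1 fell to 82.9%. Under alternative processing Notch3 passed in only 5 of 13 settings, and Jag1 in all 15. Of the 10 genes, 7 had a mean of at least 1 FPKM over the 6 libraries and were tested, 4 of these 7 (57.1%) were lower with siSox9 and 0 were higher. Over all 12009 genes tested with limma, 30.4% passed the same threshold of an adjusted p under 0.05, 17.6% as lower and 12.8% as higher. With TPM, which sets each library's sum over all genes to the same total, 2 of the 7 (28.6%) passed, against 21.2% of all genes. The median log2 fold change was -0.18 over the 7 Notch genes and -0.01 over all genes tested. FPKM of the groups did not overlap for 5 of the 7, against 46.3% of all genes tested. These 5 were the 4 that fell and Hes1, whose values were higher with siSox9. Fold changes are siSox9 minus siNC on the log2(FPKM + 1) scale, which understates the change of low genes. Exact two-sided permutation tests are not used as a threshold, since 3 libraries against 3 cannot give a p below 0.1.

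Levels differed widely between the Notch genes. With siNC the order was Jag1, Hes1, Notch2, Rbpj, Dll1, Notch3, Notch1, Jag2, Hey1 and Heyl, and with siSox9 only Notch1 and Notch3 changed places. Those neighbours had overlapping ranges in each group, and no other neighbours did. Jag1 made up 95.8% ± 0.237 (SD, n = 3) of the summed FPKM of the 3 ligands with siNC and Notch2 made up 81.5% ± 0.0454 (SD, n = 3) of that of the 3 receptors.

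**Figure D1:**
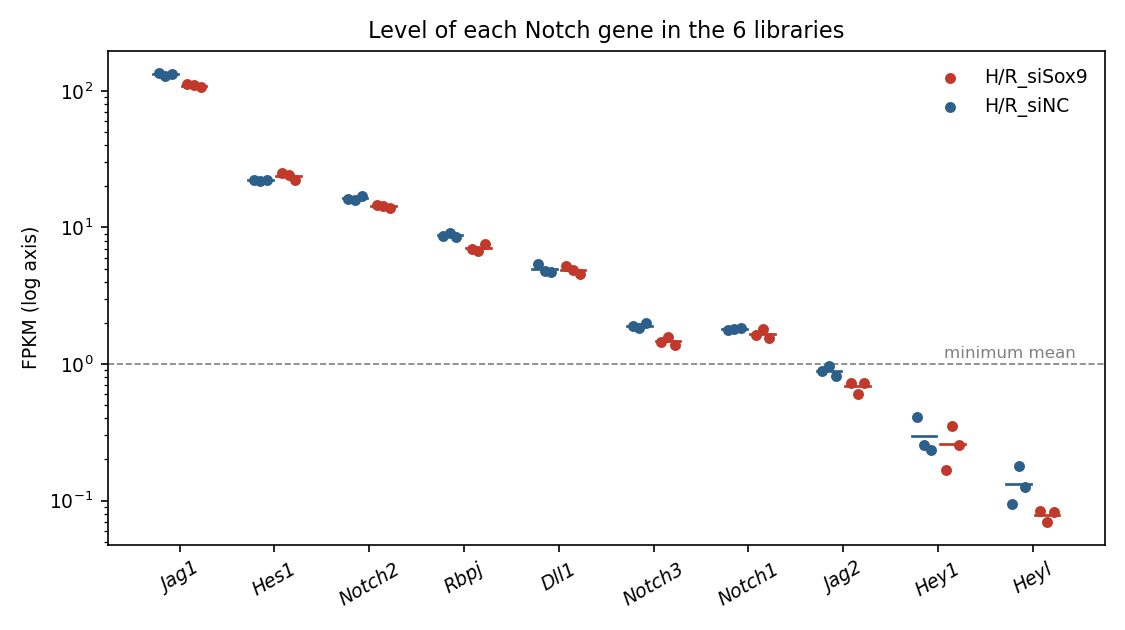
FPKM of the 10 Notch genes on a log axis, in order of their level with siNC, with 1 point per library, a line at each group's mean and a dashed line at the minimum mean of 1 FPKM. Jag1 lies above 100 FPKM in all 6 libraries. The red siSox9 points lie below the blue siNC points for Jag1, Notch2, Rbpj, Notch3, and for Jag2 and Heyl, which are under the minimum. For Hes1 they lie above, 1 of them barely. Of all genes tested, 46.3% had groups that did not overlap.

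Promoter sequences are shown for the 4 genes that fell and for Dll1, which did not pass the test, so that the presence of short SOX and RBPJ words can be read beside the changes. They are RefSeq windows of GRCm38.p6, written 5′ to 3′ on the gene's strand, from 250 bases before to 50 bases after a transcription start. Capitals mark the SOX core word ACAAT and its reverse complement ATTGT, and the RBPJ core word TGGGAA and its reverse complement TTCCCA.
Jag1 (chr2:137116471-137116770, - strand): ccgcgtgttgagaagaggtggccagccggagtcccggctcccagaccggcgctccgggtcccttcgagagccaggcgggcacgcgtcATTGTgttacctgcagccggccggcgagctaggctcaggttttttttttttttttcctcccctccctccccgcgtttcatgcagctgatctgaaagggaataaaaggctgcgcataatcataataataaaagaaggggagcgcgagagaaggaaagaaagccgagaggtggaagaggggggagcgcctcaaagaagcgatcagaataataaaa
Rbpj (chr5:53590096-53590395, + strand): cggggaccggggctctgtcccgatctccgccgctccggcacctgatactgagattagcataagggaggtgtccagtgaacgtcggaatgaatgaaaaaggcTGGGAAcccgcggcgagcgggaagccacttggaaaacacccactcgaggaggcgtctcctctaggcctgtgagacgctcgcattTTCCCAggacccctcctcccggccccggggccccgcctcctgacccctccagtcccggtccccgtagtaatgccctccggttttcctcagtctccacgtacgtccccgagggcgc
Notch2 (chr3:98013288-98013587, + strand): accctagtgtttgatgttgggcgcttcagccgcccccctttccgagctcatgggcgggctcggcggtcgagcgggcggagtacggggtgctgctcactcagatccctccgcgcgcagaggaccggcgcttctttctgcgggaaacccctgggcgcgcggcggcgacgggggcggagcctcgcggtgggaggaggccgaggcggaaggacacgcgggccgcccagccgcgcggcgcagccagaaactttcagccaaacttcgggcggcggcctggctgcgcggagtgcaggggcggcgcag
Notch3 (chr17:32166841-32167140, - strand): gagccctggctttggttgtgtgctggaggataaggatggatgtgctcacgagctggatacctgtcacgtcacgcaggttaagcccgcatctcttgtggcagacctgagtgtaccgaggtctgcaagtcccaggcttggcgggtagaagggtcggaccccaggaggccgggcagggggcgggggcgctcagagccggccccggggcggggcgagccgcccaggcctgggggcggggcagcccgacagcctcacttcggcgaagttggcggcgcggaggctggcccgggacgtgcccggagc
Dll1 (chr17:15376883-15377182, - strand): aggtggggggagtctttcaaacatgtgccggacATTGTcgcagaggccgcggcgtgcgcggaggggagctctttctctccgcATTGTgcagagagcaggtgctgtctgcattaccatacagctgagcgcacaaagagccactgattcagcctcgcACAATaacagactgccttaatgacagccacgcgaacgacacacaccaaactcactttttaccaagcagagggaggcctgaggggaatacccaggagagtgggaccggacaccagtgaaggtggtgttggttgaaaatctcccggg
The Jag1 window holds 1 SOX word, beginning at base -163 from the start, and no RBPJ word. The Rbpj window holds 2 RBPJ words, at -149 and -65, and no SOX word, and neither word is in the Notch2 and Notch3 windows. Dll1 has 3 SOX words in the window shown, at -217, -168 and -95, and none in its other window. The window shown lies wholly upstream of the listed Dll1 gene (chr17:15367354-15376872), and the other window (chr17:15375774-15376073) lies inside it. Rbpj has an overlapping downstream window, which holds again the more downstream of the RBPJ words. Both Rbpj windows lie inside the listed gene, far downstream of its listed start at 53466152, and so at an internal start. Windows were found for 7 of the 10 genes, and those of Notch1 and Jag2 hold neither word. Among all 32851 windows, 31.0% hold the SOX word and 25.6% the RBPJ word on either strand, so words this short are common, and a match is a description and not a binding site.

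Of the 3 ligands, 1 passed the test. Jag1 (ENSMUSG00000027276, chr2:137081456-137116644, - strand) encodes the Jagged ligand that binds Notch1, Notch2 and Notch3, and was the most abundant of the 10 genes. It had 111.4, 110.6 and 106.3 FPKM with siSox9 and 134.7, 128.3 and 133.1 FPKM with siNC. Every siSox9 library was thus below every siNC library, at 109.4 ± 2.77 against 132.0 ± 3.31 FPKM (SD, n = 3 each). Its log2 fold change was -0.27 (standard error 0.03, limma adjusted p = 0.00137). These levels rest on 14795 to 19484 recovered reads per library, and no stretch of 51 bases of its exons occurs in another gene.

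Dll1 (ENSMUSG00000014773, chr17:15367354-15376872, - strand), a Delta-like ligand, had 5.20, 4.92 and 4.53 FPKM with siSox9 and 5.36, 4.80 and 4.68 FPKM with siNC. The groups overlapped and their means were 4.88 ± 0.333 and 4.95 ± 0.359 FPKM (SD, n = 3 each). Dll1 did not pass the test (log2 fold change -0.02, 95% interval -0.16 to 0.13, limma adjusted p = 0.878), and its sign turned under other scalings, with 0.01 when each library was centred on its median. Its exons share 20.5% of their bases with A930024N18Rik, a lincRNA gene on the opposite strand, and reads of these cannot be told apart, because the strand setting of the counting is not given in the sources used here.

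Jag2 (ENSMUSG00000002799, chr12:112907819-112929776, - strand), the second Jagged ligand, was low. It had 0.731, 0.605 and 0.721 FPKM with siSox9 and 0.885, 0.975 and 0.820 FPKM with siNC, from 107 to 164 recovered reads per library. The groups did not overlap, and the siSox9 mean was 76.8% of control, but Jag2 was under the minimum level. In the fit without a minimum, in which 9.6% of 28122 genes passed, its log2 fold change was -0.17 (limma adjusted p = 0.215).

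Among the receptors, Notch2 and Notch3 fell and Notch1 did not pass the test. Notch2 (ENSMUSG00000027878, chr3:98013527-98150361, + strand) was the main receptor by level. It had 14.7, 14.3 and 13.9 FPKM with siSox9 and 16.3, 16.0 and 17.0 FPKM with siNC, with no overlap. The means were 14.3 ± 0.383 and 16.4 ± 0.508 FPKM (SD, n = 3 each). Notch2 changed by -0.18 on the log2 scale (standard error 0.04, limma adjusted p = 0.00944). When values were rescaled to TPM, Notch2 did not pass (-0.16, adjusted p = 0.0646 with limma). Its exons share 5.02% of their bases with Gm42820 on the same strand, so reads there cannot be assigned by strand. Of the 51-base stretches of its exons, 3.73% occur in that gene.

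Notch3 (ENSMUSG00000038146, chr17:32120820-32166880, - strand) is the receptor best known from mural cells of vessels. It had 1.46, 1.57 and 1.39 FPKM with siSox9 and 1.91, 1.83 and 2.01 FPKM with siNC. All siSox9 values lay below all siNC values, at 1.47 ± 0.0893 against 1.91 ± 0.0894 FPKM (SD, n = 3 each). Its log2 fold change was -0.24 (standard error 0.06, limma adjusted p = 0.0239), and the direction held under all 13 alternatives in which it was tested, but it passed in only 5 of these. Limma adjusted p rose to 0.0671 and 0.0689 without siSox9 replicate 1 or 3, to 0.052 and 0.081 without siNC replicate 1 or 3, and to 0.0623 with the replicate number as a block. Its listed position is not the one in GENCODE M21, so that no whole reads were recovered for it, and 6.03% of its M21 exon bases lie opposite Gm17276, an antisense gene. The mural and smooth muscle markers summed to 656.4 to 710.9 FPKM with siSox9 and 706.8 to 746.5 FPKM with siNC, nearly all of it Acta2, and 0 of the 3 tested passed. Of these 3, Tagln had a higher mean with siSox9 and Acta2 and Cspg4 had lower means, each with overlap. Under the minimum, Pdgfrb had means of 0.591 FPKM with siSox9 and 0.763 FPKM with siNC and Myh11 0.333 and 0.492 FPKM, neither with overlap, and Rgs5 had 0.0616 and 0.111 FPKM with overlap. In the fit without a minimum, 9.6% of all genes passed and 0 of the 6 markers (limma adjusted p = 0.304 for Pdgfrb, 0.0858 for Myh11 and 0.534 for Rgs5). The part of such cells in the level of Notch3 was not tested.

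Notch1 (ENSMUSG00000026923, chr2:26457903-26516663, - strand) had 1.64, 1.80 and 1.54 FPKM with siSox9 and 1.76, 1.80 and 1.84 FPKM with siNC. Replicate 2 of siSox9 lay within the siNC range, so the groups overlapped, at 1.66 ± 0.129 and 1.80 ± 0.0402 FPKM (SD, n = 3 each). The log2 fold change was -0.07 with a 95% interval of -0.22 to 0.07 (limma adjusted p = 0.394), so a fall of the size seen for Notch2 lies within the interval. A further 7.5% of its exon bases are shared with 0610009E02Rik on the opposite strand.

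Rbpj (ENSMUSG00000039191, chr5:53466152-53657362, + strand) encodes the DNA-binding protein that acts as a repressor without Notch and as an activator with the cleaved receptor. It had 6.98, 6.74 and 7.56 FPKM with siSox9 and 8.69, 9.17 and 8.53 FPKM with siNC. The highest siSox9 library was below the lowest siNC library, and the means were 7.09 ± 0.425 and 8.80 ± 0.331 FPKM (SD, n = 3 each). With a log2 fold change of -0.28 (standard error 0.05, limma adjusted p = 0.00611), it showed the largest change of the 4 genes that fell on the log2(FPKM + 1) scale, while in percent of control Notch3 fell further. Of the 51-base stretches of its exons, 10.6% occur in another gene, among them the pseudogene Rbpj-ps3, so some of its reads may be assigned there.

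Tubb6, which encodes a β-tubulin, followed Rbpj most closely over the 6 libraries (Pearson r = 0.998 on log2(FPKM + 1)), with 151.6, 148.4 and 159.4 FPKM against 171.9, 178.5 and 172.3 FPKM. Cstf2, a factor in the 3′-end cleavage of mRNA, had r = 0.997 and Zfp24, a zinc-finger transcription factor, had r = 0.995. Since the libraries fall into 2 groups, any gene that fell with little spread scores highly, and 331 of the 12009 genes tested had r of at least 0.95.

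None of the 3 targets passed the test with limma (0 of 1 tested, unadjusted p = 0.0509). Hes1 (ENSMUSG00000022528, chr16:30064384-30067796, + strand), the repressor that is the most widely used readout of Notch activity, had 24.9, 24.1 and 22.4 FPKM with siSox9 and 22.1, 22.0 and 22.4 FPKM with siNC. Replicates 1 and 2 of siSox9 were above all siNC libraries, and replicate 3 exceeded the highest of them only at the second decimal (22.44 against 22.38 FPKM). The means were 23.8 ± 1.26 and 22.2 ± 0.197 FPKM (SD, n = 3 each). Hes1 did not pass the test (log2 fold change 0.10, 95% interval -0.0005 to 0.20, limma adjusted p = 0.121). Without siSox9 replicate 3 it did, as higher (0.14, adjusted p = 0.0328 with limma). A fall as large as that of Jag1 lies outside the interval.

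Hey1 (ENSMUSG00000040289, chr3:8663359-8667256, - strand) and Heyl (ENSMUSG00000032744, chr4:123233556-123249875, + strand), which encode related repressors, rested on few reads. Hey1 had 14, 29 and 20 recovered reads with siSox9 and 33, 20 and 19 with siNC, which are 0.167, 0.350 and 0.256 against 0.407, 0.254 and 0.234 FPKM. The groups overlapped. Heyl had 11, 9 and 10 recovered reads with siSox9 and 12, 22 and 16 with siNC, which are 0.0836, 0.0693 and 0.0819 against 0.0945, 0.178 and 0.126 FPKM. Its groups did not overlap, but the closest libraries differ by 1 read. In the fit without a minimum neither passed (limma adjusted p = 0.774 for Hey1 and 0.273 for Heyl).

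Ratios taken within a library do not depend on how libraries are scaled, and they set the genes against each other. They were chosen after the values of the genes were seen and restate those values. Exact permutation tests of them are not used, since 3 libraries against 3 cannot give a p below 0.1. Jag1 to Hes1 was 4.47, 4.59 and 4.74 with siSox9 and 6.09, 5.83 and 5.95 with siNC, a mean 77.2% of control. Jag1 to Dll1 was 22.5 ± 0.998 against 26.8 ± 1.63 (SD, n = 3 each), and Notch3 to Notch1 was 0.887 ± 0.0147 against 1.06 ± 0.0408 (SD, n = 3 each). In each of these 3 ratios all siSox9 libraries lay below all siNC libraries. Of the 10 ratios, shares and sums computed, which reuse the same few genes, 9 did not overlap between the groups, so this is not particular to these 3. Of all single genes tested, 46.3% did not overlap. The sums, unlike the ratios and shares, do depend on how libraries are scaled. The share of Notch2 in the summed FPKM of the 3 receptors was 82.6%, 81.0% and 82.6% with siSox9 and 81.6%, 81.5% and 81.5% with siNC, and the groups overlapped.

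**Figure D2:**
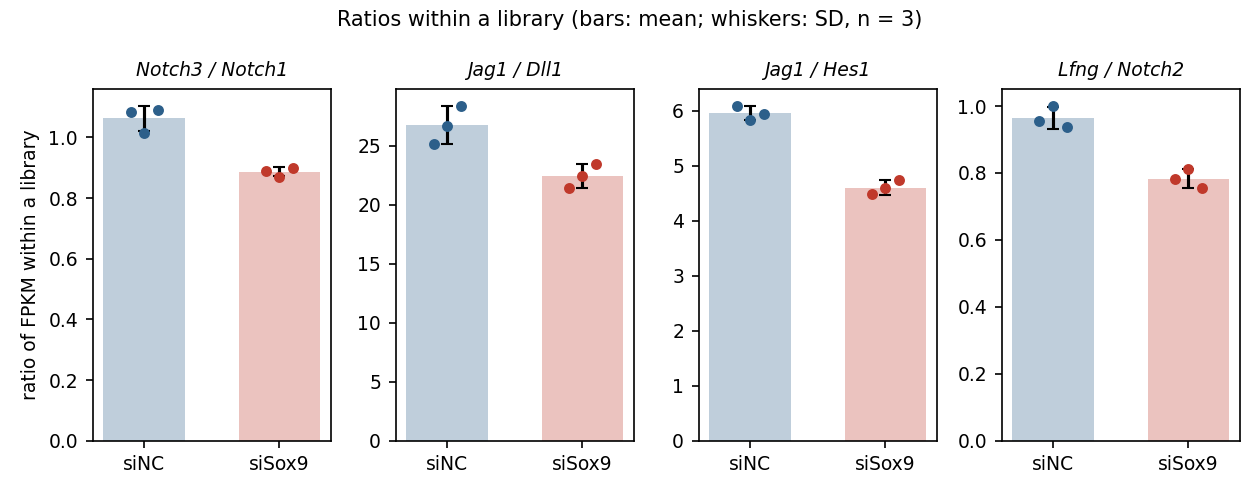
Ratios of FPKM between 2 genes in the same library, for Notch3 to Notch1, Jag1 to Dll1, Jag1 to Hes1 and Lfng to Notch2, with points for libraries, bars for group means and whiskers for the SD of 3 libraries. In each panel all 3 siSox9 points lie below all 3 siNC points, and the mean ratios with siSox9 are 83.4%, 83.9%, 77.2% and 81.1% of control from left to right.

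Of 57 further genes that process, carry or modify the Notch signal, 56 were in the table and 41 were tested, of which 12 passed, 7 as lower and 5 as higher, with a median log2 fold change of -0.03. This share of 29.3% is near the 30.4% of all genes, so the count shows nothing particular to the pathway, and the genes below are described singly. Without siSox9 replicate 2, 7 passed, and without siNC replicate 3 also 7, with 2 of them higher in each case. With TPM 6 passed, 2 of them higher. Among genes whose deposited annotation names Notch signaling, 29 of 90 tested (32.2%, again near the share of all genes) passed, 19 as lower and 10 as higher, with a median of -0.02.

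Dll4, the ligand known from endothelial tip cells, was the only tested gene among 6 further receptors and ligands. It had 0.969, 0.941 and 0.532 FPKM with siSox9 and 1.29, 1.26 and 1.64 FPKM with siNC, and it reached the minimum only through the siNC libraries. It passed as lower (log2 fold change -0.41, limma adjusted p = 0.0406) but lost this in 11 of 14 alternatives. The 6 endothelial markers summed to 3.63 to 3.93 FPKM with siSox9 and 3.89 to 4.97 FPKM with siNC, and 0 of 1 tested passed. In the fit without a minimum, 9.6% of all genes passed. Of the 6 endothelial markers 1 passed there as lower, the sialomucin gene Emcn (0.664 against 1.08 FPKM, limma adjusted p = 0.0331). Pecam1 had 0.570 against 0.677 FPKM with no overlap (limma adjusted p = 0.378), and Cdh5 had 1.16 against 1.37 FPKM with overlap. Kdr (0.509 against 0.418 FPKM), Tek (0.122 against 0.0889 FPKM) and Flt1 (0.778 against 0.762 FPKM) had higher means with siSox9, each with overlap. The part of such cells in the level of Dll4 was not tested.

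Lfng, the fringe glycosyltransferase that adds sugars to the receptors and so shifts their response between Delta-like and Jagged ligands, had the largest fall among the further genes on the log2(FPKM + 1) scale, while in percent of control Dll4 fell further. It had 11.5, 11.6 and 10.5 FPKM with siSox9 and 15.6, 16.0 and 15.9 FPKM with siNC. The gap between the groups was wider than the spread within either (log2 fold change -0.46, standard error 0.04, limma adjusted p = 0.000444). Set against its substrate in the same library, Lfng to Notch2 was 0.783 ± 0.0285 with siSox9 and 0.965 ± 0.0332 with siNC (SD, n = 3 each). The other 3 glycosylation genes tested did not pass.

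Of 9 cleavage genes tested, 2 passed, both as higher (22.2%, against 30.4% of all genes). Ncstn, which encodes nicastrin, the subunit of γ-secretase that receives the substrate, had 48.5, 48.0 and 46.6 FPKM with siSox9 and 38.0, 36.0 and 38.1 FPKM with siNC. Each siSox9 library was well above the siNC range, with a log2 fold change of 0.34 (standard error 0.03, limma adjusted p = 0.000582). Aph1b, a scaffold subunit of the same complex, rose from 3.04 ± 0.168 to 3.60 ± 0.212 FPKM (SD, n = 3 each, limma adjusted p = 0.0427) but did not pass in 8 of 14 alternatives. The other 7 cleavage genes tested, among them the proteases Adam10, Adam17 and Furin, did not pass.

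Of 9 ubiquitin ligases and endocytic regulators tested, 2 passed as higher and 2 as lower (44.4% in all, against 30.4% of all genes). Numb and Numbl, adaptors known to restrain Notch by sending the receptor into the cell, rose to 11.7 ± 0.176 from 10.2 ± 0.546 FPKM and to 6.37 ± 0.205 from 5.49 ± 0.322 FPKM (SD, n = 3 each). Their log2 fold changes were both 0.18 (limma adjusted p = 0.0175 for Numb and 0.0264 for Numbl), and the call was lost in 5 of 15 alternatives for Numb and 6 of 15 for Numbl. Itch, a ligase that marks Notch for degradation, had 10.4, 10.3 and 10.2 FPKM with siSox9 and 12.1, 12.4 and 12.4 FPKM with siNC (log2 fold change -0.24, limma adjusted p = 0.00168). Dtx4, a ligase of the Deltex family, fell to 16.3 ± 0.779 from 19.4 ± 0.845 FPKM (SD, n = 3 each, limma adjusted p = 0.00841). Itch passed in all 15 alternatives and Dtx4 in all 14 in which it was tested.

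Of 7 coactivators tested 2 passed, both as lower (28.6%), and of 11 corepressors 1 passed as lower and 1 as higher (18.2% in all), neither share above the 30.4% of all genes. Kat2a, a histone acetyltransferase, had 15.8, 15.4 and 16.0 FPKM with siSox9 and 22.0, 20.1 and 19.4 FPKM with siNC (log2 fold change -0.36, standard error 0.05, limma adjusted p = 0.00188). Spen, a corepressor that binds RBPJ in the absence of Notch, rose to 9.76 ± 0.357 from 8.36 ± 0.272 FPKM (SD, n = 3 each, limma adjusted p = 0.0102). These 2 kept their direction and passed in all 15 alternatives. Of the Mastermind coactivators, which bind the complex of RBPJ and the cleaved receptor, Maml1 and Maml2 did not pass the test.

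**Figure D3:**
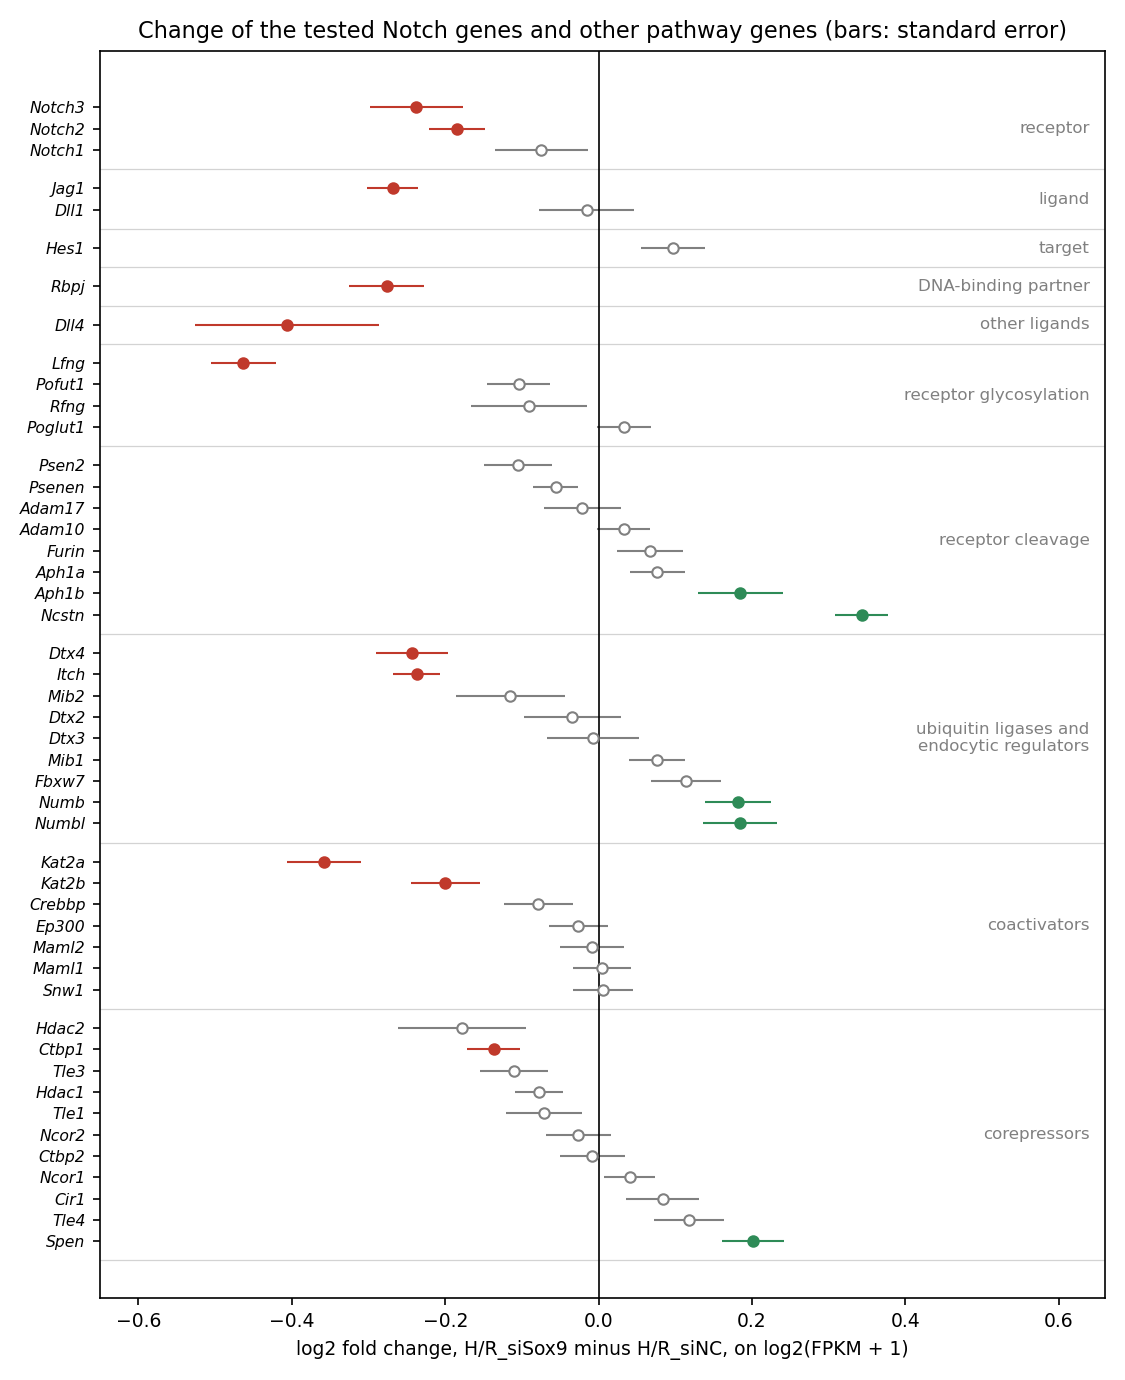
Log2 fold change of siSox9 minus siNC on log2(FPKM + 1), with the standard error as a bar, for the 7 tested Notch genes and 40 of the 41 further pathway genes tested, grouped by role. Filled red points passed as lower and filled green points as higher, and open points did not pass; Lfng lies farthest to the left at -0.46 and Ncstn farthest to the right at 0.34.

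The calls differed in how far they rested on the processing. Jag1 and Rbpj passed as lower under all 15 alternatives, with log2 fold changes between -0.29 and -0.24 for Jag1 and between -0.32 and -0.24 for Rbpj. Limma adjusted p reached at most 0.0154 for Jag1 and 0.0254 for Rbpj. Notch2 passed under 14 of 15, and Notch3 under 5 of 13.

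**Figure D4:**
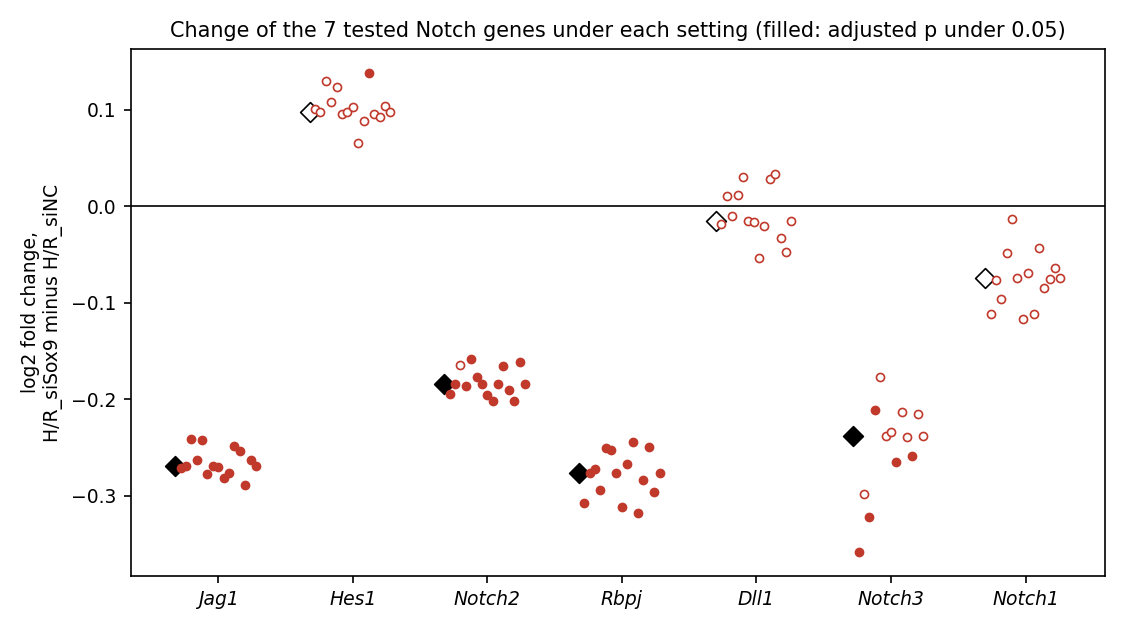
Log2 fold change of the 7 tested Notch genes under the reported setting (diamond) and each alternative (circles), filled where the limma adjusted p was under 0.05. All points of Jag1 and Rbpj are filled and lie between -0.32 and -0.24, 8 of those of Notch3 are open, and those of Dll1 lie on either side of 0.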

How the data were processed

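RNA-Seq was performed on 3 H/R_siSox9 and 3 H/R_siNC libraries. FPKM, computed by the authors for each gene, were deposited. The submitters' processing notes list HISAT2 2.1.0, Bowtie2 2.2.3, TopHat2 and the build mm9 with no role, while 93.3% of the 30246 genes found in GENCODE M21 have its GRCm38 positions, which are those printed here. The counting tool, its strand setting and any further scaling are not given in the sources used here. Groups were taken from the labels; columns named for an siRNA that is not siNC were taken as siSox9, since the labels name no siRNA besides these.

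Tests were made with limma 3.58.1 (R 4.3.3; lmFit, eBayes with a trend, no block) on log2(FPKM + 1) over the 12009 genes whose mean reached 1 FPKM, with Benjamini-Hochberg adjustment over all of them and a threshold of 0.05. The script was tested on simulated data. Whole reads were recovered from FPKM with GENCODE M21 exon lengths, within 0.02 reads, for 27949 genes in all libraries, and 93.3% to 93.4% of values came out whole. Recovered reads were used for depth and for limma voom as an alternative, on genes whole in all libraries, which called 3714 of 10479 genes. The other alternatives were a pseudocount of 0.1, no minimum, a minimum of 5 FPKM, quantile normalization, centring on the library median, TPM, a replicate block, leaving out each library and, added after the data were seen, TPM without the 10 most abundant genes.

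The Notch genes and the lists were chosen with earlier results of these data known. Genes named besides them are Sox9, at most 5 higher and 5 lower further pathway genes past the threshold by size of change, a tested gene that stands alone in its role, and the 3 genes most correlated with Rbpj, the called Notch gene of largest change on the log2(FPKM + 1) scale. Genes named as not passing, the ratios and the named markers were picked after their values were seen. The authors' siRNA sequences were not used here, and 1 further pathway gene that did not pass is counted but not reported by name. Tables and figures were made in Python 3.11.15 with pandas 2.3.3, numpy 2.4.6, matplotlib 3.10.9 and scipy 1.17.1.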

Additional observations from a re-analysis of the deposited data

How the results depend on the processing

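Over all genes, 3650 passed, with 1532 higher and 2118 lower. Centring on the library median gave 1959 higher and 1765 lower, quantile normalization 1812 and 1797, TPM 1217 and 1332, and a minimum of 5 FPKM 1328 and 1376, while the median change of all genes stayed between -0.02 and 0.01. Leaving out a library gave 2424 to 3654 genes, the fewest without siSox9 replicate 2. Of the Notch genes, 4 passed, 2 with TPM and 3 to 4 with a library left out. Without siSox9 replicate 3 the 4 were not the same, with 3 lower and 1 higher, as Hes1 passed and Notch3 did not. Of the further pathway genes, 12 passed, 6 with TPM and 7 to 11 with a library left out. When the 10 most abundant genes were left out of the TPM sum, 4 Notch genes and 11 further genes passed, Notch2 and Notch3 among the 4. With the replicate number as a block (replicate block), 3 Notch genes, 10 further genes and 3262 genes in all passed, and of the Notch genes Notch3 lost its call. Same-numbered libraries did not deviate together (correlations of 0.0649, -0.0504 and 0.00784). Deviations from means of 3 libraries cannot show whether such libraries share a mouse or culture, which the labels do not state. The sign of Dll1 turned with TPM (0.0103), median-centring (0.0114), quantile normalization (0.0304) and without siSox9 replicate 3 (0.0282) or siNC replicate 1 (0.0337; range with a library left out -0.0534 to 0.0337), and that of Hey1 without siSox9 replicate 1 (0.00686) or siNC replicate 1 (0.0133; range -0.0983 to 0.0133). Genes annotated to Notch signaling gave 21 to 28 calls with a library left out, and Sox9 -1.46 to -1.43. The causes of these shifts were not tested. Where a library is left out, its group has 2 samples. Hey1, Heyl and Jag2 rest on at most 164 reads in a library, and whether depth limits their tests was not examined. Notch3 could not enter voom.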

Other observations

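Several pathway genes lay under the minimum level and were picked here after their values were seen. Notch4, the receptor known from endothelium, had 0.232, 0.186 and 0.223 FPKM with siSox9 and 0.325, 0.355 and 0.335 FPKM with siNC, and the groups did not overlap (limma adjusted p = 0.0578 in the fit without a minimum). Hey2, a further target of the Hey family, had 0.508, 0.600 and 0.437 FPKM with siSox9 and 0.588, 0.442 and 0.543 FPKM with siNC, and the groups overlapped. Nrarp, a feedback inhibitor that Notch itself turns on, had 0.196, 0.152 and 0.178 FPKM with siSox9 and 0.0936, 0.193 and 0.265 FPKM with siNC, again with overlap. In the same fit 9.6% of all 28122 genes passed. Of 6 endothelial markers 1 passed there as lower, Emcn, with 0.690, 0.699 and 0.604 FPKM with siSox9 and 1.15, 1.01 and 1.08 FPKM with siNC (limma adjusted p = 0.0331). Among the other markers, Pecam1 and Cdh5 had lower means with siSox9, and Kdr, Tek and Flt1 had higher means. The part of endothelial cells in the level of Notch4 was not tested.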
